A study of Mus musculus with 6 samples.

Results

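Cxcl10 and 7 other chemokine ligand genes (Cxcl9, Ccl3, Ccl4, Ccl5, Xcl1, Ccl1 and Ccl22) were followed in regulatory T (Treg) cells. The cells came from mice with both alleles or 1 allele of the transcription factor gene Gata3 floxed. The ligand genes were taken by gene symbol from the probe sets annotated to exactly 1 gene, and they are 8 of the 12394 genes compared. Each had a single such probe set, so the rule of keeping the brightest probe set per gene made no choice among them. Cxcl10 heads the group because its difference was already known from these arrays, so its values are given as a description without a test. The other 7 were chosen by name, as ligands of the same family, with their values in these arrays already known.

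The cells were CD4+CD25+YFP+ Treg cells sorted from mouse spleen and lymph nodes, 3 mice a group and 1 Affymetrix array a mouse. Mice written Gata3F/FFoxp3YFP-Cre, in which both Gata3 alleles are floxed, gave the 3 arrays labelled GATA3KO. Mice written Gata3F/+Foxp3YFP-Cre, heterozygous for the floxed allele, gave the 3 arrays labelled WT. All mice of both groups carried the Cre recombinase, made as a fusion with YFP from the Foxp3 locus, so the WT label stands for cells with an intact Gata3 allele and with Cre. The sources used here give no strain background, age or sex. Values are log2 intensities computed by robust multi-array average (RMA), and the number of arrays limits their precision.

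Chemokines are small secreted proteins that steer leukocytes through G protein-coupled receptors, and they are named C, CC or CXC after the spacing of their first cysteines. CXCL9 and CXCL10 are induced by interferons and attract activated T cells through CXCR3. CCL3, CCL4 and CCL5 attract T cells and monocytes, XCL1 binds XCR1 on cross-presenting dendritic cells, CCL1 binds CCR8 and CCL22 binds CCR4. Activated T cells make several of these, and macrophages and dendritic cells are major sources of others.

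The labels could not be checked at Gata3 itself. Its single probe set read 9.83, 9.98 and 9.71 in the arrays labelled GATA3KO, against 9.57, 9.41 and 9.47 in the arrays labelled WT, a log2 change of 0.35 ± 0.07 (SE, adjusted p = 0.0387 by limma). The call was lost without GATA3KO replicate 1 or 2, without WT replicate 2 or 3 (adjusted p up to 0.182) and without the intensity trend of limma's variance model (0.15). The probe set of the floxed gene was thus higher where the label says it was lost. The sources used here do not say which part of Gata3 was floxed. If the probes lie elsewhere in the gene they cannot check the label, so every direction below rests on the labels. The T cell genes Cd3e, Cd4 and Il2ra were well measured, with means over the 6 arrays of 9.68, 8.13 and 8.98. Foxp3 itself read 3.94 ± 0.12 in arrays labelled GATA3KO and 3.90 ± 0.05 in arrays labelled WT (SD, n = 3 each), which is among the dim probe sets, although its reporter defined the sort. Dim here means a mean over the 6 arrays below the 40th percentile of all probe sets, a log2 value of 5.25, and a dim probe set does not show that a gene is silent. Array medians lay between 6.06 and 6.11. GATA3KO replicate 1 was the array least like the others. Its Pearson r over all probe sets was 0.996 with GATA3KO replicates 2 and 3, which had 0.998 with each other. With the arrays labelled WT its r was 0.994 to 0.995, where GATA3KO replicates 2 and 3 had 0.996 to 0.997. These are bulk samples, so a change in the number of cells that make a transcript cannot be told apart from a change in transcript per cell.

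Cxcl10 was higher in the arrays labelled GATA3KO, with a log2 change of 1.03. Ccl1 came next with 0.49, and the other 6 ligands had log2 changes from -0.08 to 0.19. None of those 7 passed the threshold (0 by limma, adjusted p under 0.05 over all genes; 1, Ccl1, at an unadjusted p under 0.05). Over all 12394 genes 2.21% passed in either direction, 1.44% higher and 0.766% lower in the arrays labelled GATA3KO. At an unadjusted p under 0.05, 1070 of the 12394 were higher and 719 lower. The median log2 change of the 8 was 0.17, and 6 of the 8 were positive. Over all genes the median was 0.0078. In 3 of the 8 (Cxcl10, Cxcl9 and Ccl1) the GATA3KO values lay wholly above the WT values, where 11.3% of all genes did so and 19.8% did not overlap in either direction. Cxcl10 was chosen for its difference, so its part in these counts and in the median was given by the choice. Apart from it, only Ccl1 and the dim Cxcl9 did not overlap. Cxcl9 and Ccl3 were dim, Ccl4, Ccl22 and Ccl1 lay just above the dim limit at means of 5.59, 5.80 and 6.02, and Xcl1, Cxcl10 and Ccl5 were clearly above it.

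**Figure D1:**
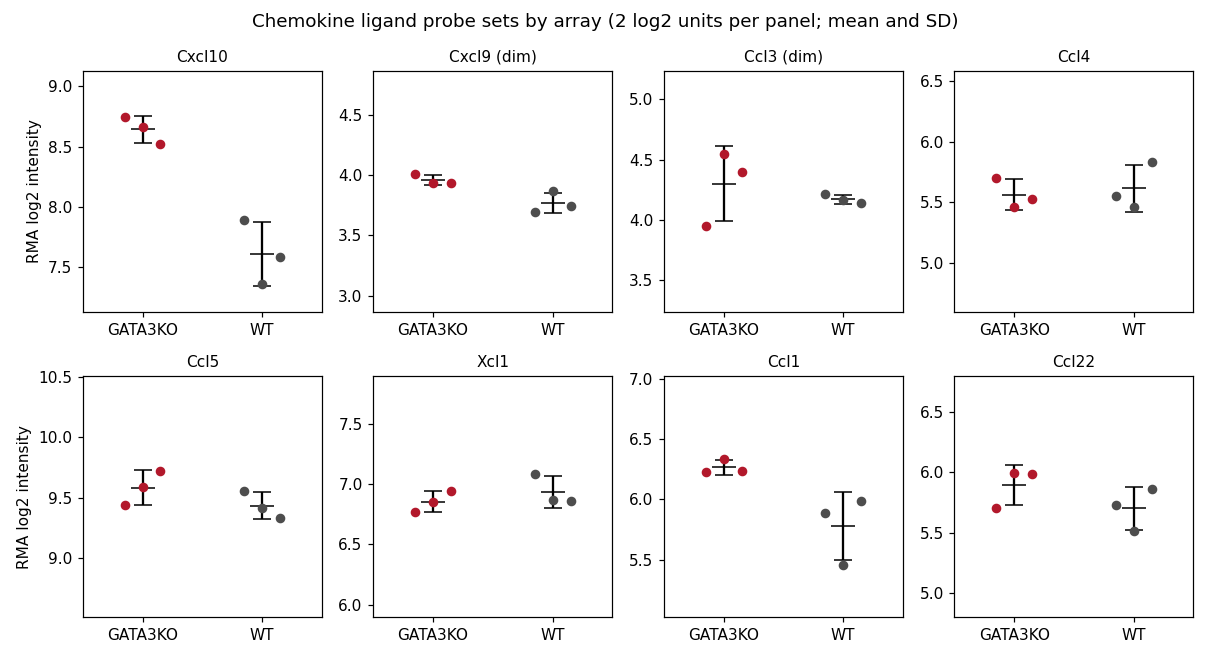
RMA log2 intensity (y axis) of the probe sets of 8 chemokine ligand genes in the 3 arrays labelled GATA3KO (red) and the 3 labelled WT (grey), with mean and SD as black bars and 2 log2 units in every panel. The groups are apart in Cxcl10, from 8.52 to 8.75 in arrays labelled GATA3KO against 7.36 to 7.89 in arrays labelled WT, and by smaller gaps in Cxcl9 and Ccl1; they overlap in the other 5 genes.

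The CXCR3 ligands came first. Cxcl10, which encodes the interferon-inducible chemokine IP-10, read 8.75, 8.67 and 8.52 in the arrays labelled GATA3KO, against 7.89, 7.36 and 7.59 in the arrays labelled WT. The lowest array labelled GATA3KO lay above the highest array labelled WT, and the spread among the WT arrays was the wider one. Cxcl10 averaged 8.65 ± 0.11 in arrays labelled GATA3KO and 7.61 ± 0.26 in arrays labelled WT (SD, n = 3 each). That is 2.05-fold, or a log2 change of 1.03. By the size of its increase Cxcl10 ranked 7 of the 12394 genes, and leaving out any 1 array gave log2 changes between 0.91 and 1.17.

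Cxcl9, which encodes another interferon-inducible CXCR3 ligand, was dim. It read 4.01, 3.93 and 3.94 in the arrays labelled GATA3KO, against 3.70, 3.86 and 3.74 in those labelled WT. All 3 GATA3KO values lay above the WT values, but by a narrow margin, and the log2 change of 0.19 did not pass (95% confidence interval -0.01 to 0.39, adjusted p = 0.381 by limma). Cxcl11, the third CXCR3 ligand, was dim as well, with a log2 change of 0.08 (adjusted p = 0.870). The increase read at Cxcl10 was thus not read at the other CXCR3 ligands, whose probe sets were dim. Whether the changes of Cxcl10 and Cxcl9 differ was not tested, since Cxcl10 had been chosen for its change.

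The upstream sequences of these genes are shown because the interferon-stimulated response element and kappaB sites are the known routes by which chemokine genes are switched on, and GATA sites are what GATA3 binds. RefSeq start sites on GRCm38.p6 were available for 6 of the 8 genes (not for Ccl4 and Ccl5), and the 250 bases before each start were searched. The response element was searched as GAAANNGAAA, kappaB by its consensus of 10 bases and GATA as GATAA, each on both strands. Capitals mark matches, and overlapping kappaB matches run together as 1 stretch. Cxcl10 (chr5:92348890-92349139, minus strand), Cxcl9 (chr5:92328080-92328329, minus strand) and Ccl1 (chr11:82179813-82180062, minus strand), the 3 genes whose groups did not overlap, read as follows.
Cxcl10: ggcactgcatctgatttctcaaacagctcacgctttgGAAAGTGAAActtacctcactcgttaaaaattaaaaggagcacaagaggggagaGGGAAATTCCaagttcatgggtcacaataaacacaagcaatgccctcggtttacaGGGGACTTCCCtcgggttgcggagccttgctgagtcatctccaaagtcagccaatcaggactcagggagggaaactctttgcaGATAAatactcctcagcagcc
Cxcl9: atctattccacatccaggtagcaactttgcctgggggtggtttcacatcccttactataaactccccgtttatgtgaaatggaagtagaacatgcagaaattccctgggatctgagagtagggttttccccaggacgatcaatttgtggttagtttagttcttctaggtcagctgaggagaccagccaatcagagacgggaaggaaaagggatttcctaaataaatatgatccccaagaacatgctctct
Ccl1: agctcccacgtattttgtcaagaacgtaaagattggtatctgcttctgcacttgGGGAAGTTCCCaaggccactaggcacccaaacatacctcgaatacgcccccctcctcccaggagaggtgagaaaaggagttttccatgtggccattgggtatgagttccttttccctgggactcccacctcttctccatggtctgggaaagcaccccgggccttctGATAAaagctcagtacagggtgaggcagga

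Of the 6 searched genes only Cxcl10 held a match to the response element, GAAAGTGAAA at bases 213 to 204 before the start. Such a match occurred in 2.98% of the 32851 promoter windows in the table. Cxcl10 also held 2 kappaB stretches, one of them GGGAAATTCC at bases 159 to 150, and a GATAA at bases 21 to 17. Ccl1 held 1 kappaB stretch, which began at base 196, and a GATAA at bases 30 to 26. Cxcl9, Ccl3, Xcl1 and Ccl22 held no match to any of the 3 motifs. Windows with a kappaB match made up 7.25% and those with a GATAA 22.6% of all windows. With the middle 4 bases of kappaB left free, Cxcl9 and Ccl22 matched too, as did 28.4% of all windows. The motifs were settled after the values of the genes were known. A match describes the sequence and is not evidence of binding.

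Ccl3, Ccl4 and Ccl5 showed no difference that passed. Ccl5, which encodes RANTES and is strongly transcribed in effector and memory T cells, was clearly measured. It read 9.44, 9.59 and 9.72 in the arrays labelled GATA3KO, against 9.55, 9.42 and 9.33 in those labelled WT, and the groups overlapped. Its log2 change was 0.15 (95% confidence interval -0.03 to 0.33, adjusted p = 0.434 by limma), and it was 0.08 without GATA3KO replicate 3 and 0.10 without WT replicate 3.

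Ccl4, which encodes MIP-1 beta, read 5.70, 5.46 and 5.53 in the arrays labelled GATA3KO, against 5.55, 5.46 and 5.83 in those labelled WT. Its log2 change of -0.05 (95% confidence interval -0.32 to 0.22, adjusted p = 0.898) turned positive when WT replicate 3, the highest array, was left out (0.06), and was 0.0010 without GATA3KO replicate 2. Ccl3, which encodes MIP-1 alpha, was dim, at 3.95, 4.55 and 4.40 in the arrays labelled GATA3KO, against 4.21, 4.17 and 4.14 in those labelled WT. GATA3KO replicate 1 was the lowest and replicates 2 and 3 the highest of the 6 arrays. The log2 change of Ccl3 was 0.13 (95% confidence interval -0.19 to 0.45, adjusted p = 0.765), and it was 0.30 without GATA3KO replicate 1 and 0.0046 without GATA3KO replicate 2.

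Xcl1, the gene of lymphotactin, a C chemokine made by activated CD8 T cells and NK cells, was measured above the dim limit. It read 6.77, 6.85 and 6.94 in the arrays labelled GATA3KO, against 7.09, 6.86 and 6.86 in those labelled WT. The groups overlapped, and the log2 change was -0.08 (95% confidence interval -0.28 to 0.11, adjusted p = 0.751). It was -0.0063 without WT replicate 1, the highest array, -0.04 without GATA3KO replicate 1, and -0.12 without GATA3KO replicate 3.

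Ccl1 and Ccl22 are the ligands of CCR8 and CCR4, receptors that Treg cells themselves are known to carry. Ccl1 read 6.23, 6.34 and 6.23 in the arrays labelled GATA3KO, against 5.88, 5.46 and 5.99 in those labelled WT. Every GATA3KO array lay above every WT array, the GATA3KO values lay close together and WT replicate 2 was the lowest. Ccl1 averaged 6.27 ± 0.06 in arrays labelled GATA3KO and 5.78 ± 0.28 in arrays labelled WT (SD, n = 3 each). The 1.40-fold difference did not pass (log2 change 0.49, 95% confidence interval 0.19 to 0.78, unadjusted p = 0.00442, adjusted p = 0.102 by limma). Over all genes 14.4% had an unadjusted p under 0.05. Without WT replicate 2 the log2 change of Ccl1 was 0.33.

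Ccl22, a chemokine best known from dendritic cells and macrophages, read 5.70, 6.00 and 5.99 in the arrays labelled GATA3KO, against 5.73, 5.51 and 5.86 in those labelled WT. The groups overlapped through GATA3KO replicate 1, and the log2 change of 0.19 did not pass (95% confidence interval -0.08 to 0.47, adjusted p = 0.535). It was 0.10 without WT replicate 2 and 0.29 without GATA3KO replicate 1. Ccl17, the other CCR4 ligand, was dim and read 5.15, 5.27 and 4.93 in the arrays labelled GATA3KO against 4.89, 4.73 and 4.74 in those labelled WT. Its log2 change of 0.33 did not pass (adjusted p = 0.199).

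Of 30 other chemokine ligand genes listed, 26 were measured, 19 of them dim. None passed in either direction (0 by limma), and 1, Ccl17, had an unadjusted p under 0.05. Their log2 changes ran from -0.31 to 0.70 with a median of 0.07, and the groups did not overlap in 2 of 26 (7.69%). The extremes were Ccl27a, a skin chemokine, and Ccl6, a chemokine of myeloid cells, both dim. Ccl6 read 4.36, 5.06 and 5.95 in the arrays labelled GATA3KO, against 4.52, 4.57 and 4.18 in those labelled WT, and its log2 change of 0.70 was not past the threshold (adjusted p = 0.359).

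Of the receptors of these ligands, 7 genes were described, and 5 of them were dim. None passed in either direction (0 by limma). At an unadjusted p under 0.05, 2 were lower (Cxcr3 and Ccr8), as were 719 of all 12394 genes. The median of the 7 log2 changes was -0.13, and 6 of the 7 were negative, as were 5824 of the 12394. Cxcr3, the receptor of CXCL9 and CXCL10, read 9.61, 9.68 and 9.78 in the arrays labelled GATA3KO, against 10.1, 9.78 and 9.83 in those labelled WT. Its log2 change was -0.21 (adjusted p = 0.257). Ccr8, the receptor of CCL1, was dim, at 3.95 ± 0.04 in arrays labelled GATA3KO and 4.21 ± 0.14 in arrays labelled WT (SD, n = 3 each; log2 change -0.26, adjusted p = 0.270). Ccr4, the receptor of CCL22, had a log2 change of -0.23 (adjusted p = 0.471).

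**Figure D2:**
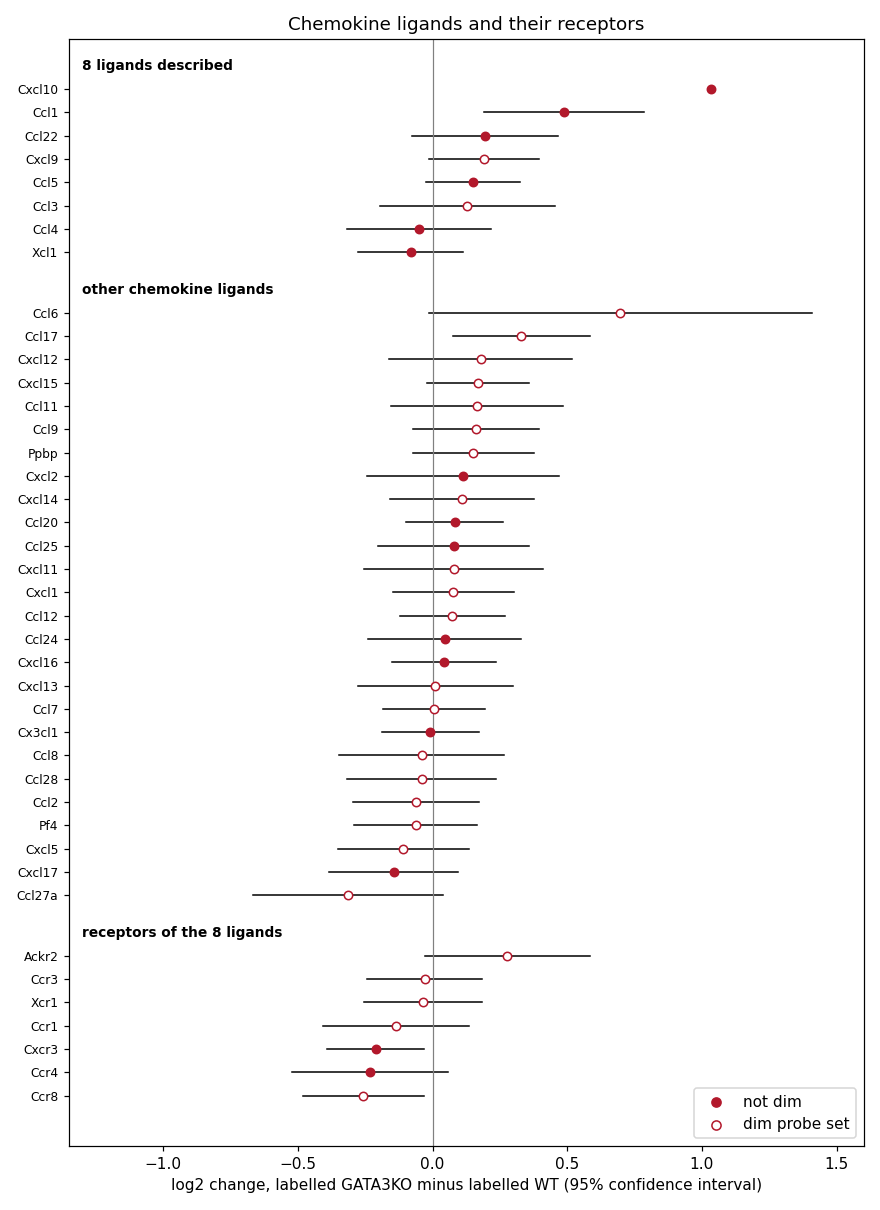
Log2 change, arrays labelled GATA3KO minus arrays labelled WT (x axis), with its 95% confidence interval from limma (none drawn for Cxcl10), for the 8 ligands described, 26 other chemokine ligands and 7 receptors (y axis); open points are dim probe sets. Cxcl10 lies at 1.03 and Ccl1 at 0.49, the other ligands lie between -0.31 and 0.70, and 6 of the 7 receptors lie below 0.

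Interferon gamma, the cytokine that CXCL10 was first known to follow, signals through JAK1 and JAK2. Of 10 measured genes of that pathway 3 fell and 0 rose by limma, where 0.766% of all genes fell, and the median log2 change was -0.14. Ifng itself fell, to 6.40, 7.02 and 6.84 in the arrays labelled GATA3KO, against 7.85, 7.81 and 7.54 in those labelled WT (log2 change -0.98 ± 0.15, SE, adjusted p = 0.0118). Tbx21, the gene of the Th1 factor T-bet, fell by 0.63 on the log2 scale (adjusted p = 0.0185) and Jak1 by 0.24 (adjusted p = 0.033). Cxcl10 was higher in the same arrays in which Ifng was lower. The Ifng call was lost without WT replicate 2 (adjusted p = 0.0736). The Tbx21 call was lost without GATA3KO replicate 2 or WT replicate 2 (adjusted p up to 0.105), and the Jak1 call without either of those, GATA3KO replicate 3 or WT replicate 3 (up to 0.159). All 3 calls were also lost without the intensity trend (adjusted p = 0.0674, 0.0581 and 0.174). Irf1 had a log2 change of -0.08 (adjusted p = 0.409).

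Of 25 measured interferon-stimulated genes 0 passed by limma. The unadjusted p was under 0.05 for 1 gene that was higher and 5 that were lower, and the median log2 change was -0.09. Over all 12394 genes 1070 were higher and 719 lower at that p. The 3 with the largest changes were Oasl1 (-0.57, adjusted p = 0.0974), Ifit1 (-0.57, adjusted p = 0.215) and Ifit3 (-0.50, adjusted p = 0.436), genes of antiviral defence. Without GATA3KO replicate 1, without WT replicate 3 or with array quality weights, 1 gene of the list was called lower. With the replicate number as a block 4 were. Among 12 measured genes of the NF-kB response Lta, the gene of lymphotoxin alpha, rose by 0.38 (adjusted p = 0.0116) and none fell. The Lta call was lost without GATA3KO replicate 2 or WT replicate 2 (adjusted p up to 0.0651) and without the intensity trend (0.0702). Tnfaip3, the gene of the feedback inhibitor A20, had a log2 change of 0.37 (adjusted p = 0.102).

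Within the groups, 12 of the 25 interferon-stimulated genes ran closely with Cxcl10 from array to array, and the rest did so less or not at all. Around its group means Cxcl10 deviated by 0.10, 0.02 and -0.12 in GATA3KO replicates 1 to 3 and by 0.28, -0.25 and -0.03 in WT replicates 1 to 3. Across the 6 arrays the deviations of those 12 correlated with those of Cxcl10 at a Pearson r over 0.8, where 5.86% of all genes did, and 10 of the 12 had a negative log2 change. The median r of the list was 0.77, against 0.05 over all genes. Ifit1 read 7.89, 7.53 and 7.26 in the arrays labelled GATA3KO, against 8.58, 7.74 and 8.07 in those labelled WT. Its order within each group was that of Cxcl10, while its group means lay the other way round (r of deviations 0.96, Spearman's rho 1.0). Rtp4, another interferon-stimulated gene, had an r of 0.96 and a log2 change of -0.15. The 5 genes of the list with an r below 0 were Bst2 (-0.81), Psmb8 (-0.44), Gbp2 (-0.36), Igtp (-0.27) and Zbp1 (-0.23). The 2 arrays with the largest deviations of Cxcl10 were WT replicates 1 and 2. With their points left out of the correlation, 7 of the 12 genes kept an r over 0.8, where 12.2% of all genes had one. The median r of the list was then 0.58 over the 4 arrays left. The lowest of the 12 was then Ifit2 at 0.54, and Bst2 turned to 0.56. The deviations were still taken from group means that included those 2 arrays. The value of WT replicate 3 thus still depends on them, so how far the relation rests on those 2 arrays cannot be told this way. These correlations describe 6 arrays, with group means removed, in which all genes share the same RNA preparations, and no test was applied to them.

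A fixed rule picked the genes most like Cxcl10 in these deviations by the highest r. Genes had to be not dim and to have a range over the arrays of at least 0.5. Predicted genes, clones and similar names were left out. The 6 picked were S100a4 (0.997), Plscr1 (0.995), Hamp (0.995), Cdk5r1 (0.968), Trim25 (0.967) and Ifit1. As the highest of many genes over 6 arrays, their r were bound to be high. Plscr1 and Trim25 are interferon-inducible genes of antiviral defence, and S100a4 encodes a calcium-binding protein of motile cells. S100a4 read 11.6, 11.5 and 11.4 in the arrays labelled GATA3KO, against 10.9, 10.5 and 10.7 in those labelled WT. Plscr1 read 8.42, 8.37 and 8.26 in the arrays labelled GATA3KO, against 8.08, 7.71 and 7.84 in those labelled WT. Both thus ran with Cxcl10 within the groups and between them, with log2 changes of 0.82 and 0.48, while Trim25 (-0.20), Hamp (-0.19) and Ifit1 ran with it within the groups only. With the group difference kept in, the 6 highest by the same rule were S100a4, Cdk5r1, Actg2, Jdp2, Art3 and Plscr1. Their r ran from 0.989 to 1 over the 6 arrays, a measure that the separation of the groups dominates.

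**Figure D3:**
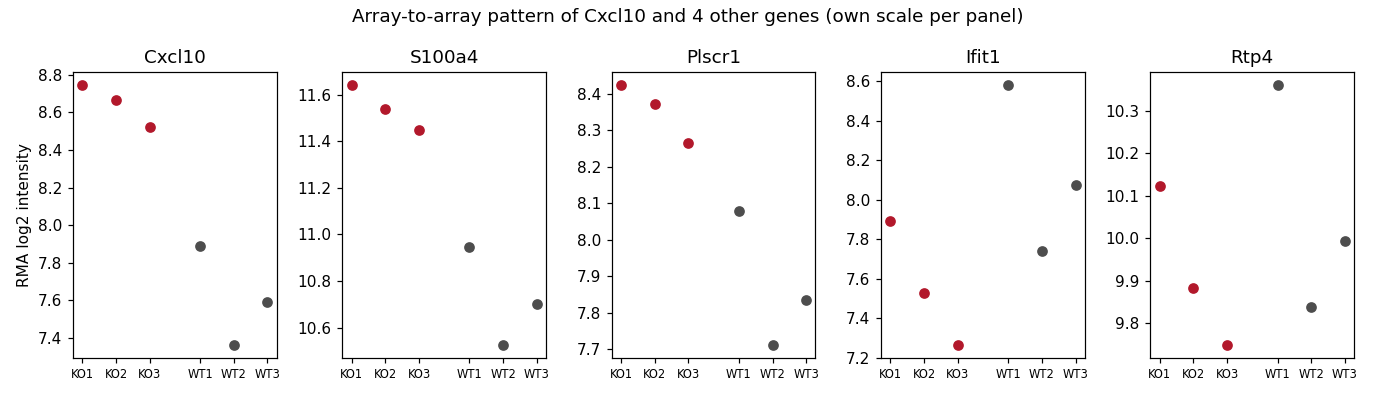
RMA log2 intensity (y axis, own scale per panel) of Cxcl10 and 4 other genes in each array labelled GATA3KO (red, KO1 to KO3) and WT (grey, WT1 to WT3). Within each group the genes rank the arrays alike, but Cxcl10, S100a4 and Plscr1 are higher in the arrays labelled GATA3KO (log2 changes 1.03, 0.82 and 0.48) and Ifit1 and Rtp4 are not (-0.57 and -0.15).

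Among these genes Art3 is the next protein-coding gene to Cxcl10 on chromosome 5, and its annotated span in GRCm38.p6 contains Cxcl10 on the opposite strand. Art3, an ADP-ribosyltransferase family gene, read 6.51, 6.50 and 6.47 in the arrays labelled GATA3KO, against 6.19, 5.91 and 5.95 in those labelled WT. The groups did not overlap, and its log2 change was 0.47, less than that of Cxcl10. The other measured protein-coding neighbours on either side were flatter. Sdad1 (0.18), Naaa (-0.01), Ppef2 (-0.09) and Uso1 (-0.01) lie beyond Cxcl9, and Nup54 (0.0038), Scarb2 (-0.14), Stbd1 (0.12) and Shroom3 (-0.08) lie on the other side, with adjusted p from 0.376 to 0.987 by limma. This look at the locus was chosen after the values were seen, and where the probes lie within Art3 or Cxcl10 was not analysed here. Ccl5, Ccl9, Ccl6, Ccl3 and Ccl4 follow each other in that order on chromosome 11, and none of these neighbours passed (log2 changes 0.15, 0.16, 0.70, 0.13 and -0.05).

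**Figure D4:**
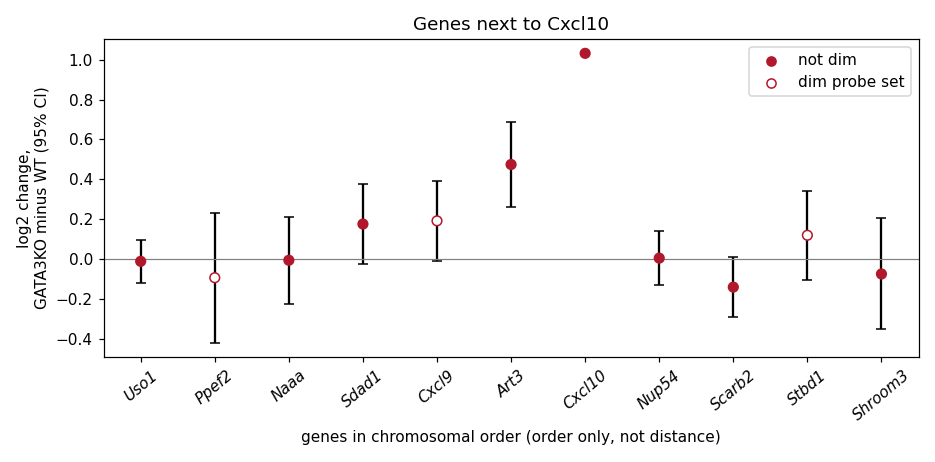
Log2 change, arrays labelled GATA3KO minus arrays labelled WT, with its 95% confidence interval from limma (y axis; none drawn for Cxcl10), for the measured protein-coding genes next to Cxcl10 in chromosomal order (x axis, order only); open points are dim probe sets. Cxcl10 (1.03) and Art3 (0.47) stand above the others, which lie between -0.14 and 0.19.

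Markers of other leukocytes were read because macrophages, dendritic cells, NK cells and CD8 T cells make several of these chemokines. At an unadjusted p under 0.05, 1070 of all 12394 genes were higher and 719 lower, and 6570 of the 12394 had a positive log2 change. Of 13 measured myeloid and dendritic cell genes 0 passed by limma and 3 were higher at an unadjusted p under 0.05. Their median log2 change was 0.11, and the largest were those of Lyz2 (1.02, adjusted p = 0.0849), Tyrobp (0.48, adjusted p = 0.215) and Csf1r (0.33, adjusted p = 0.381). Their mean level lay between 5.56 and 5.85 in the arrays labelled GATA3KO and between 5.46 and 5.61 in those labelled WT. Of 10 neutrophil genes 0 passed, 2 were higher at an unadjusted p under 0.05 and 9 had a positive log2 change, with a median of 0.20. S100a9, a calgranulin gene, read 5.10, 5.83 and 6.59 in the arrays labelled GATA3KO, against 4.44, 4.77 and 5.02 in those labelled WT. The groups did not overlap, and its log2 change of 1.10 (adjusted p = 0.113) ranked 6 of all genes, next to that of Cxcl10. Ngp, a neutrophil granule gene, had 0.74 (adjusted p = 0.220) and S100a8, the partner of S100a9, had 0.64 (adjusted p = 0.437). The neutrophil list had mean levels of 4.79, 4.96 and 5.30 in GATA3KO replicates 1 to 3, against 4.62 to 4.74 in the arrays labelled WT. GATA3KO replicate 1 had the lowest myeloid and neutrophil levels of its group and the highest Cxcl10. Within that group Ccl6 and Ccl3 were also lowest in replicate 1, as was Lyz2, a lysozyme gene of macrophages. Lyz2 read 6.55, 7.44 and 7.60 in GATA3KO replicates 1 to 3, against 6.54, 5.79 and 6.19 in WT replicates 1 to 3. Among the arrays labelled WT, replicate 1 had the highest Cxcl10 and the highest myeloid level (5.61, against 5.46 and 5.49). It also had the lowest neutrophil level (4.62). The myeloid level and Lyz2 ranked the WT arrays as Cxcl10 did. Without GATA3KO replicate 1, 3 myeloid genes and 1 neutrophil gene were called higher, and with array quality weights 2 and 1. With the replicate number as a block 1 neutrophil gene was called higher. The part of these cells in the group differences of the ligands was not tested. Of 9 measured genes of CD8 T cells and NK cells 0 passed and 2 were lower at an unadjusted p under 0.05, and their mean levels were 5.63 to 5.74 in arrays labelled GATA3KO and 5.80 to 5.91 in arrays labelled WT. Klrd1 (-0.71, adjusted p = 0.177), Klrk1 (-0.57, adjusted p = 0.121) and Prf1 (-0.21, adjusted p = 0.550) had the largest changes. Without WT replicate 1, 1 of these genes was called lower, and with the replicate number as a block 2 were. Of 9 measured B cell genes only Cd22 rose (1.15, adjusted p = 0.00152), and the mean levels of the list overlapped, at 4.89 to 5.03 in arrays labelled GATA3KO and 4.81 to 4.93 in arrays labelled WT. Of the defining markers Cd8a, Cd79a, Pax5 and Ncr1 were dim, while Cd8b1, Nkg7, Cd79b and Ms4a1 were not, with means over the 6 arrays of 6.64, 8.69, 7.37 and 5.56. Of 11 measured Treg and T cell genes only Tnfrsf4, the gene of OX40, passed (0.32, adjusted p = 0.0186), and all 11 log2 changes were positive. At an unadjusted p under 0.05, 6 of the 11 were higher. The groups did not overlap in 5 of the 11 (45.5%), against 19.8% of all genes. No gene of that list was called without GATA3KO replicate 2 or 3, without WT replicate 2 or without the intensity trend. With a replicate block, a robust variance model, a dim filter or centred medians, or without WT replicate 3, 2 were called higher. With array quality weights or without WT replicate 1, 3 were.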

How the data were processed

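Total RNA was extracted with Trizol and made into biotin-labelled cRNA for Affymetrix arrays, per the labels' protocols. The authors deposited log2 intensities computed by RMA, which corrects background, quantile normalizes arrays and summarises probes, per the submitters' processing notes (no version). Groups come from the array titles.

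Of 22690 probe sets, 20393 had exactly 1 gene in the platform annotation, 691 had several and 1606 were not listed. The probe set with the highest mean stood for each of 12394 genes, with no filter on dim probe sets. GATA3KO minus WT was fitted with limma 3.58.1 in R 4.3.3 (lmFit, eBayes with an intensity trend), two-sided, Benjamini-Hochberg adjusted over all genes, threshold 0.05. Errors are SDs over arrays or moderated SEs.

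The members and lists were chosen with earlier results of these data known. Named were all members, the checks Gata3 and Foxp3, list genes past the threshold or else the nearest, and the 6 genes most like Cxcl10. The receptor list is not complete, and what it leaves out is not reported here. A TSS table of GRCm38.p6 (RefSeq) gave sequences. On simulated data for 12394 genes, GATA3KO against WT, 60.0% of genes changed by 0.5, 95.0% by 1 and 98.0% by 2 (log2) were called. Of the calls 4.4% were false. The SDs of the genes were shuffled among them, so these rates do not hold for single genes or for dim ones. Figures used matplotlib 3.10.9. Alternatives were a replicate block, other variance models, array weights, normalizations, probe set choices, a dim filter, and leaving out each array.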

Additional observations from a re-analysis of the deposited data

How the results depend on the processing

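The log2 change of Cxcl10 lay between 0.91 and 1.17 over the 15 alternatives. Leaving out 1 array gave that range, array quality weights gave 1.07 and the other normalizations 1.03. The remaining settings cannot change the difference of group means of a gene with 1 probe set, so they say nothing about its size. Cxcl9, Ccl3, Ccl5, Xcl1 and Ccl22 kept their direction, with sizes that moved by more than 1.5 times without 1 array for all but Cxcl9, and passed in none of theirs (limma, smallest adjusted p = 0.130, Ccl5). Ccl1 passed only with array quality weights (limma, log2 change 0.57, adjusted p = 0.033). Its adjusted p otherwise lay between 0.08 and 0.268. Ccl4 turned positive without GATA3KO replicate 2 (0.0010) and without WT replicate 3 (0.057), and leaving out 1 array gave -0.13 to 0.057. Over all genes, 179 were higher and 95 lower; the counts were 31 and 23 without the intensity trend and 400 and 185 with array quality weights. Leaving out 1 array gave 35 to 165 higher and 24 to 105 lower, with the lowest counts without GATA3KO replicate 2 (35 and 27) and WT replicate 2 (38 and 24). The cause was not tested. With the replicate number as a block 234 were higher and 134 lower, and Ccl1 did not pass (adjusted p = 0.106); 4 interferon-stimulated genes and 2 genes of CD8 T cells and NK cells were called lower and 1 neutrophil gene higher, against 0 of each without it. Over all genes, same-numbered arrays did not deviate together (r of 0.04, -0.02 and 0.07), so the numbers were not taken as pairs. Single genes could differ from this. Cxcl10 and Ifit1 were highest in replicate 1 of both groups, but replicates 2 and 3 ranked in opposite order between the groups. Bst2 was highest in GATA3KO replicate 1 of its group and lowest in WT replicate 1. With 3 arrays a group and no scanner files used here, dim probe sets such as Cxcl9 and Ccl3 limit what could be detected.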
